A study of Mus musculus with 8 samples.

Results

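The genes described here encode the transcription complex through which the Hippo pathway reaches DNA: Yap1 (YAP) and Wwtr1 (TAZ), the 4 TEAD genes Tead1, Tead2, Tead3 and Tead4, and Vgll4. They were chosen by name from the deposited table of raw counts, and the 7 genes are 7 of the 56748 genes that it lists. RNA was sequenced from mouse primary hepatocytes cultured for 24 h on collagen-coated hydrogels of 1 kPa (soft) or 20 kPa (stiff), with 2 libraries in each of the 4 groups. All animals carried floxed alleles of both coactivators (Yap fl/fl; Taz fl/fl, a line that also holds a ROSA26-LSL-tdTomato reporter per the study's methods) on a C57BL/6J background and received an adeno-associated virus 10 days before the cells were isolated. In the KO groups (Yap/Taz HepKO) the virus was AAV8-TBG-Cre, in which the thyroxine-binding globulin promoter drives Cre in hepatocytes, and in the WT groups it was AAV8-TBG-Null, so the WT cells carried the floxed alleles and the virus without Cre. The design text gives females of 7 to 8 weeks, whereas a protocol label and the study's methods give males. In these libraries Xist had between 4818 and 8443 counts. Ddx3y, Eif2s3y, Kdm5d and Uty, genes of the Y chromosome, had 0 counts in each of the 8, so the counts show the pattern of female cells. Nothing in the labels says that the libraries of a group came from separate mice, so each p-value measures the spread between these libraries, which may be technical.

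YAP and TAZ are paralogous coactivators that do not bind DNA themselves. When the Hippo kinases MST and LATS are active, they phosphorylate YAP and TAZ, which are then held in the cytoplasm or degraded. On stiff matrix, or when the kinases are inactive, they enter the nucleus and bind the TEAD proteins, which recognise a short DNA motif near their target genes, while VGLL4 binds the same TEAD proteins and acts as a corepressor.

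The promoters of 4 of the 7 genes hold the core TEAD motif, and the stretches around it are shown because these are genes of the complex that binds this motif. The letters GGAATG, or CATTCC on the other strand, were searched in the 250 bases before each RefSeq start site (GRCm38.p6), a search chosen after the sequences had been seen. Entries were held for 5 of the 7 genes, Yap1, Wwtr1, Tead2, Tead3 and Vgll4, and the windows of Yap1, Wwtr1, Tead3 and Vgll4 held the motif. That of Tead2 held no match. Among all promoters, 14.36% of 27025 genes held it, and among the listed YAP/TAZ target genes 6 of the 15 with an entry did. A match is a run of letters and not a measured binding site. All 4 stretches are read 5′ to 3′ on the minus strand, lie outside annotated exons, and carry the motif in capitals. The motif shown began 141 bases before the start site in Yap1, 136 bases in Wwtr1 (170 from a second start site), 82 bases in Vgll4 and 182 bases in Tead3. A second start site of Tead3 had 2 further matches on the other strand, 123 and 114 bases before it and inside annotated exons of Tead3, and its remaining start site had none. Overlap with annotated genes was read for the whole 250-base window from which each stretch was taken. The windows of Vgll4 and Tead3 overlap their own genes, that of Yap1 overlaps the gene Gm45494, and that of Wwtr1 overlaps no annotated gene. Whether the shorter stretches shown reach into these genes was not tested.
Yap1, chr9:8004684-8004785: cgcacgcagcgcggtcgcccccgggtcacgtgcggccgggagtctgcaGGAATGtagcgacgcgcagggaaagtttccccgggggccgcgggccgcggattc
Wwtr1, chr3:57575993-57576094: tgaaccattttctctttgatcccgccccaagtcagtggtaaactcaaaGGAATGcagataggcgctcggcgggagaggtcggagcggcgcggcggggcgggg
Vgll4, chr6:114969232-114969333: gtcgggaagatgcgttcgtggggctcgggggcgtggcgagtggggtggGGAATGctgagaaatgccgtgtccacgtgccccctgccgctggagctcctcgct
Tead3, chr17:28350934-28351035: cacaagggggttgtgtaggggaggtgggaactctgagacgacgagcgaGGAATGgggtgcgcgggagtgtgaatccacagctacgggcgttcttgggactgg

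Library totals lay between 18324083 and 26442310 counts, and 14279 genes, all 7 described here among them, passed the filter on low counts. Levels are given as CPM, the count per 1000000 counts of the library after TMM scaling. The summed level of 8 hepatocyte markers was between 90324 and 94449 CPM in the WT and between 62848 and 63521 CPM in the KO libraries, with none of the 8 at 0. Albumin (Alb) made up most of that sum, and without it the other 7 summed to 8650 to 8706 CPM in WT soft, 7010 to 7087 CPM in WT stiff and 8154 to 8397 CPM in KO libraries. Hnf4a, a hepatocyte transcription factor, was at 365 and 379 CPM in WT soft, 186 and 193 CPM in WT stiff and 414 to 437 CPM in KO libraries. The markers of the list did not share 1 pattern. Tat followed that order of groups (56.7 and 57.3, 34.4 and 35.0, and 69.8 to 77.2 CPM). Cps1 was lowest in KO libraries (86.1 and 92.2, 75.4 and 76.0, and 45.0 to 50.7 CPM). Ttr did not fall in WT stiff libraries (1558 and 1592, 1592 and 1626, and 1671 to 1763 CPM). Markers of other liver cells were present at low levels that differed between the groups. The summed level of 10 stellate cell and fibroblast markers was 37.1 to 37.6 CPM in WT soft, 24.9 to 26.8 CPM in WT stiff, 53.0 to 54.2 CPM in KO soft and 54.6 to 57.5 CPM in KO stiff libraries, with Lrat at 0 in 4 libraries and Lum at 0 in 1. Sums over 8 endothelial markers (74.5 to 76.0, 49.3 to 52.5, 93.5 to 96.1 and 94.1 to 106 CPM) and 8 Kupffer cell and macrophage markers (80.9 to 84.0, 56.8 to 62.5, 116 to 117 and 118 to 120 CPM) were likewise lowest in the WT stiff and highest in the KO libraries, with no marker at 0. Cholangiocyte markers (8) summed to 571 to 603, 622 to 626, 366 to 367 and 341 to 351 CPM, with Cftr at 0 in every library and Krt7 at 0 in 2, and 1 of them, Krt19, was at 20.1 and 21.0 CPM in the WT stiff libraries and at 0.429 to 2.44 CPM in the other 6. What part RNA of these cells had in the results below was not tested. In such bulk libraries, fewer cells of a type and less RNA per cell cannot be told apart.

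Levels of both targeted genes were lower in every KO library than in any WT library. Yap1 (ENSMUSG00000053110) was at 99.8 and 95.5 CPM in the WT soft libraries and at 29.2 and 31.8 CPM in the KO soft libraries, and at 140 and 135 CPM against 28.4 and 31.3 CPM on the stiff hydrogel. Wwtr1 (ENSMUSG00000027803) was at 42.5 and 41.5 CPM in WT soft and at 16.0 and 16.6 CPM in KO soft libraries, and at 63.9 and 65.2 CPM against 15.7 and 13.7 CPM on the stiff hydrogel. The level of Yap1 that remained in KO cells was 31.1% of WT (95% interval of the fit 28.3 to 34.2) at 1 kPa and 21.7% (19.7 to 23.8) at 20 kPa, and that of Wwtr1 was 38.7% (34.5 to 43.4) and 22.8% (20.3 to 25.6). On the log2 scale Yap1 fell by 1.68 (SE 0.0643, edgeR adjusted p = 2.44e-12) at 1 kPa and by 2.2 (SE 0.0646, edgeR adjusted p = 3.7e-15) at 20 kPa, and Wwtr1 fell by 1.37 (SE 0.0784, edgeR adjusted p = 4.32e-10) and by 2.13 (SE 0.0788, edgeR adjusted p = 9.21e-14). The counts cover each gene as a whole, so reads from exons outside the floxed part count as well. The stellate, endothelial and Kupffer cell marker sums were also higher in KO than in WT libraries on both hydrogels, and TBG-Cre leaves such cells undeleted by design. How much of the remaining signal came from them was not tested.

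In WT cells the stiff hydrogel raised most of the complex. Wwtr1, Tead1, Tead2, Tead4 and Vgll4 rose past both thresholds (an adjusted p under 0.05 together with a log2 fold change beyond 0.5 in either direction), Yap1 rose by the adjusted p but with a log2 fold change just under 0.5, and Tead3 did not pass. So 5 of the 7 genes were called, all higher, where 19.3% of the 14279 tested genes were called and 10.0% were called higher. By the adjusted p alone 6 of the 7 passed, against 41.0% of all genes. The libraries of the soft and the stiff group did not overlap for 6 of the 7, all but Tead3, against 68.9% of all genes. The median log2 fold change of the 7 genes was 0.64, beside -0.0087 over all tested genes.

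In KO cells the same change of hydrogel gave no called gene among the 7, where 0.0210% of all genes, 3 in number, were called. At an unadjusted p under 0.05 the edgeR count was also 0 of 7, against 7.54% of all genes, and DESeq2 called 0. The groups did not overlap for Wwtr1, which was lower in the stiff libraries, and for Tead3, which was higher, 2 of 7 against 38.1% of all genes. The stiffness effect itself was then compared between the genotypes in an interaction term (the change in KO minus the change in WT). It was lower in KO cells past both thresholds for 6 of the 7 genes, all but Tead3, where 16.8% of all genes were called and 8.21% were called lower. The median interaction of the 7 was -0.76, beside 0.015 over all tested genes. These contrasts share libraries with each other and are not independent.

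**Figure D1:**
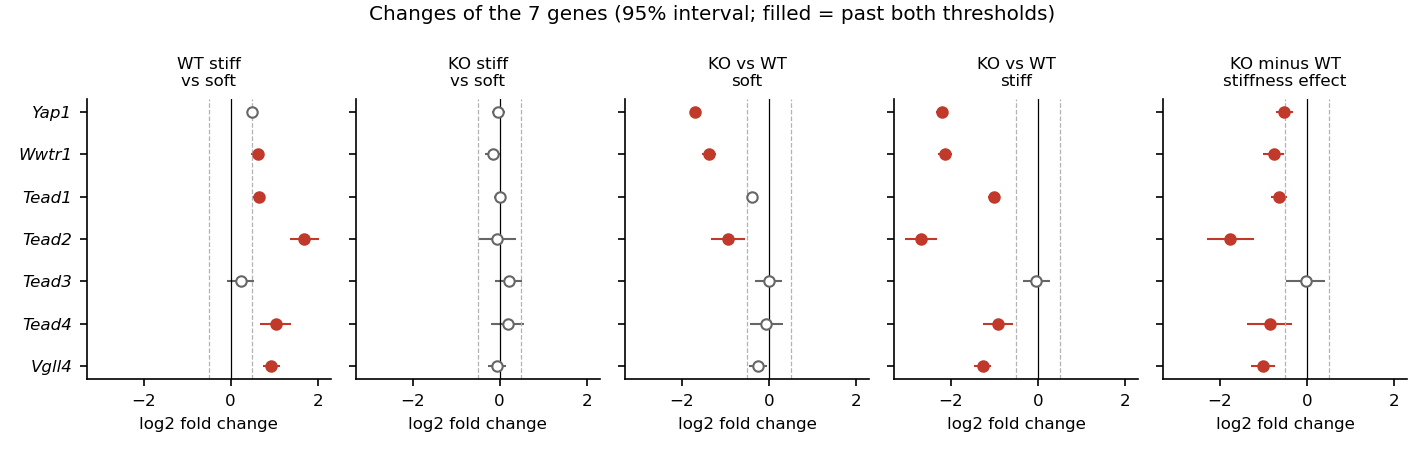
Log2 fold change (x axis) of the 7 genes (rows) in the 5 comparisons (panels), with the 95% interval of the edgeR fit; filled points passed both thresholds, of which the dashed lines mark the log2 fold change of 0.5 in either direction. In the KO stiff vs soft panel no point is filled, and in the last panel 6 of the 7 points are filled and lie below 0.

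The coactivators themselves responded to stiffness in WT cells. Yap1 was at 99.8 and 95.5 CPM at 1 kPa and at 140 and 135 CPM at 20 kPa, and the groups did not overlap. Its change was 1.41-fold (log2 fold change 0.49, SE 0.0580, edgeR adjusted p = 1.69e-06), short of the fold threshold. The log2 fold change came to 0.50, just past that threshold, with DESeq2, with RLE scaling and without a filter on low counts, and to 0.53 without WT soft library 1 or WT stiff library 2. Wwtr1 rose 1.54-fold in the same libraries (log2 fold change 0.62, SE 0.0702, edgeR adjusted p = 1.06e-06). In KO cells what remained of these transcripts did not pass the test between hydrogels, with a log2 fold change of -0.03 (95% interval -0.18 to 0.12) for Yap1 and -0.15 (-0.33 to 0.039) for Wwtr1. The interaction was -0.52 for Yap1 (SE 0.0911, edgeR adjusted p = 0.000253) and -0.76 for Wwtr1 (SE 0.112, edgeR adjusted p = 4.19e-05). For Yap1 it was -0.46 without KO soft library 2 and -0.45 without KO stiff library 1, under the fold threshold. Both genes are deleted in these cells, so the interaction compares intact transcripts with what deletion left.

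The TEAD genes encode the DNA-binding subunits and were not targeted. Tead1 (ENSMUSG00000055320) was the TEAD gene with the most reads, at 65.9 and 71.8 CPM in WT soft, 107 and 108 CPM in WT stiff, 54.1 and 51.9 CPM in KO soft and 54.2 and 51.8 CPM in KO stiff libraries. The WT stiff libraries stood above the other 6, and the KO libraries of both hydrogels overlapped each other and lay below all WT libraries. Tead1 rose 1.56-fold with stiffness in WT cells (log2 fold change 0.64, SE 0.0571, edgeR adjusted p = 4.43e-08). In KO cells its log2 fold change was 0.00047, with a 95% interval of -0.13 to 0.13, and the interaction was -0.64 (SE 0.0830, edgeR adjusted p = 9.88e-06).

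Tead2 (ENSMUSG00000030796) had the largest fold change of the 7 genes with stiffness in WT cells. It was at 5.12 and 4.89 CPM in WT soft, 17.0 and 15.5 CPM in WT stiff, 2.97 and 2.24 CPM in KO soft and 2.62 and 2.42 CPM in KO stiff libraries. No KO library reached the lowest WT library, and the WT stiff libraries lay far above the rest. The rise in WT cells was 3.24-fold (log2 fold change 1.70, SE 0.157, edgeR adjusted p = 7.47e-08), a size that 96.3% of all tested genes did not reach. In KO cells the log2 fold change was -0.06 (95% interval -0.49 to 0.37) on 45 to 76 counts a library, and the interaction was -1.76 (SE 0.259, edgeR adjusted p = 4.4e-05). Cd37, a gene on the other strand that overlaps Tead2, had a mean of 10.4 counts, against 138 for Tead2, and the strand setting of the counting is not given in the sources used here.

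Tead4 (ENSMUSG00000030353) was at 4.24 and 5.05 CPM in WT soft, 9.06 and 9.86 CPM in WT stiff, 4.06 and 4.82 CPM in KO soft and 5.29 and 4.74 CPM in KO stiff libraries. Both WT stiff libraries were above the other 6, which overlapped. It rose 2.05-fold with stiffness in WT cells (log2 fold change 1.04, SE 0.168, edgeR adjusted p = 7.09e-05). Its interaction of -0.85 (SE 0.245, edgeR adjusted p = 0.0136) rests on few reads, 91 to 194 a library. Without 1 library the edgeR adjusted p became 0.055 (WT soft library 1), 0.052 (WT stiff library 2) or 0.0605 (KO soft library 2).

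Tead3 (ENSMUSG00000002249) passed no test. Its levels were 7.82 and 8.66 CPM in WT soft, 10.8 and 8.48 CPM in WT stiff, 8.35 and 8.06 CPM in KO soft and 9.46 and 9.49 CPM in KO stiff libraries, and the WT stiff libraries overlapped the other groups. The log2 fold change with stiffness was 0.24 in WT cells (95% interval -0.073 to 0.55, edgeR adjusted p = 0.218) and 0.21 in KO cells (-0.10 to 0.51), so a change of up to about 1.46-fold lies inside the first interval. The interaction was -0.03 (95% interval -0.47 to 0.41). These values rest on 156 to 225 counts a library.

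Vgll4 (ENSMUSG00000030315), the TEAD corepressor, rose with stiffness in WT cells as well. It was at 17.5 and 17.1 CPM in WT soft, 32.7 and 33.5 CPM in WT stiff, 14.1 and 14.9 CPM in KO soft and 13.2 and 14.4 CPM in KO stiff libraries. The WT stiff libraries lay above the other 6, and the KO groups overlapped. The rise with stiffness in WT cells was 1.92-fold (log2 fold change 0.94, SE 0.0910, edgeR adjusted p = 1.41e-07), the log2 fold change in KO cells was -0.07 (95% interval -0.28 to 0.14), and the interaction was -1.01 (SE 0.134, edgeR adjusted p = 1.41e-05). Of the other Vgll genes, which also encode TEAD-binding proteins, Vgll2 had 0 counts in all 8 libraries and Vgll1 had 2 counts in KO soft library 1 and 0 elsewhere, at or under the 3 counts that a count of 0 allows. Vgll3 had 4 and 1 counts in WT soft, 28 and 19 in WT stiff, 9 and 6 in KO soft and 4 and 3 in KO stiff libraries. It passed the filter on low counts only through the WT stiff libraries, so its test carries no weight and is not given.

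**Figure D2:**
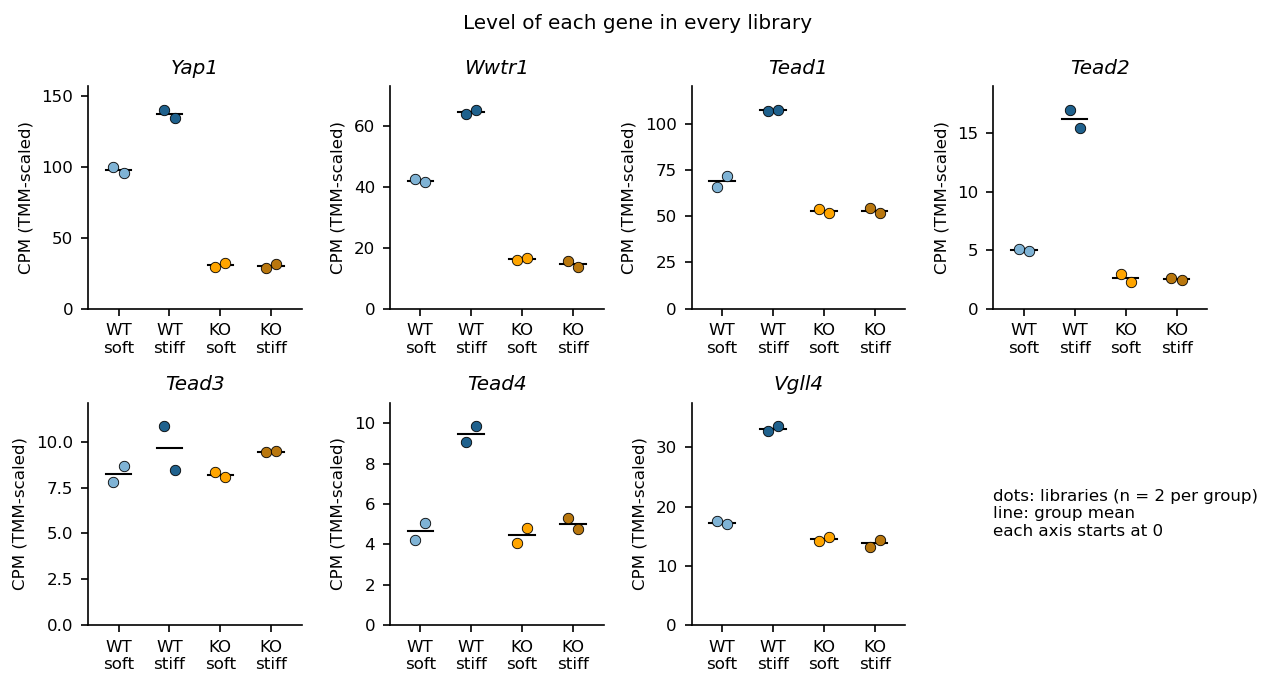
Level in TMM-scaled CPM (y axis, from 0) of each of the 7 genes in the 4 groups (x axis); dots are the 2 libraries of a group and lines their mean. The WT stiff dots stand highest for every gene but Tead3, where 1 WT stiff library lies among those of the other groups.

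Knockout against WT asks what became of the partners once both coactivators were deleted. On the soft hydrogel 3 of the 7 genes were called lower, where 6.67% of all genes were called and 4.65% were called lower, and 2 of the 3 are the deleted genes. The called partner was Tead2, at 0.525 of its WT level (log2 fold change -0.93, SE 0.186, edgeR adjusted p = 0.00135). By the adjusted p alone 4 of the 7 passed, against 18.4% of all genes, the fourth being Tead1 at 0.771 of WT (log2 fold change -0.38, SE 0.0591, edgeR adjusted p = 0.000134). Vgll4 gave a log2 fold change of -0.25 (SE 0.0963, edgeR adjusted p = 0.0811), Tead4 one of -0.06 (95% interval -0.44 to 0.32) and Tead3 one of 0.00016 (-0.31 to 0.31). The groups did not overlap for 5 of the 7 genes, Yap1, Wwtr1, Tead1, Tead2 and Vgll4, against 56.2% of all genes.

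On the stiff hydrogel more genes of the complex passed. Here 6 of the 7 genes were called lower, where 28.7% of all genes were called and 15.0% were called lower. The deleted genes Yap1 and Wwtr1, whose fall follows from the design, are among the 6. Tead2 was at 0.155 of its WT level (log2 fold change -2.69, SE 0.173, edgeR adjusted p = 2.73e-10), Vgll4 at 0.417 (log2 fold change -1.26, SE 0.0936, edgeR adjusted p = 2.06e-09), Tead1 at 0.494 (log2 fold change -1.02, SE 0.0584, edgeR adjusted p = 5.23e-11) and Tead4 at 0.531 (log2 fold change -0.91, SE 0.167, edgeR adjusted p = 0.00017). The log2 fold change of Tead3 was -0.03 (95% interval -0.34 to 0.28). The groups did not overlap for 6 of the 7, all but Tead3, against 74.5% of all genes. The WT stiff libraries enter both this comparison and the stiffness comparison in WT cells, so the 2 are not independent. The stellate, endothelial and Kupffer cell marker sums were higher in KO stiff than in WT stiff libraries. Within the stellate list Col1a1 was lower in KO stiff cells (log2 fold change -0.62, SE 0.193, edgeR adjusted p = 0.0121). What part RNA of these cells had in the differences above was not tested.

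To compare the genes with each other, counts were divided by gene length, as CPM per kilobase (RPKM), with the length that the deposited table gives. In WT soft cells the order was Yap1 (10.5 RPKM), Wwtr1 (8.79), Tead1 (5.08), Vgll4 (3.20), Tead4 (1.29), Tead3 (1.23) and Tead2 (1.05), and Tead4 and Tead3 overlapped between libraries. In WT stiff cells it was Yap1 (14.9 RPKM), Wwtr1 (13.5), Tead1 (7.91), Vgll4 (6.14), Tead2 (3.40), Tead4 (2.63) and Tead3 (1.44), with no overlap between neighbours. By this length Tead2 was the lowest of the TEAD genes in WT soft cells and second to Tead1 in WT stiff cells. In KO cells Tead1 came first (3.90 RPKM at 1 kPa and 3.91 at 20 kPa), Yap1 (3.29 and 3.23) and Wwtr1 (3.41 and 3.07) overlapped, Vgll4 followed (2.69 and 2.56), Tead3 (1.22 and 1.41) and Tead4 (1.23 and 1.39) overlapped, and Tead2 was last (0.543 and 0.527). The order depends on the length used. With the longest annotated transcript instead, a choice made after seeing the data, the order in WT soft cells began with Yap1 (18.5 RPKM), Wwtr1 (8.94), Vgll4 (7.86) and Tead1 (6.91), and in WT stiff cells with Yap1 (26.0), Vgll4 (15.1), Wwtr1 (13.7) and Tead1 (10.8). In KO cells Vgll4 then came first (6.61 RPKM at 1 kPa and 6.29 at 20 kPa), before Yap1 (5.77 and 5.65), Tead1 (5.32 and 5.32) and Wwtr1 (3.47 and 3.13), and Yap1 no longer overlapped Wwtr1 but overlapped Tead1 at 20 kPa. By that length Tead3 was above Tead4 and Tead2 in WT soft cells (2.39, 1.51 and 1.47 RPKM, the latter pair overlapping), and in WT stiff cells Tead2 (4.79) was above Tead4 (3.08) and Tead3 (2.81), which overlapped.

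The balance of the transcripts was then read from ratios of reads per kilobase within a library. Such ratios need no scaling between libraries but rest on the deposited gene lengths. They are ratios of RNA and do not give protein levels, location in the cell or binding to TEAD. Coactivator over TEAD, (Yap1 + Wwtr1) over the sum of the 4 TEAD genes, was 2.11 to 2.38 in WT soft, 1.83 to 1.86 in WT stiff, 0.932 to 1.01 in KO soft and 0.855 to 0.886 in KO stiff libraries. Vgll4 over (Yap1 + Wwtr1) was 0.165 to 0.166, 0.213 to 0.220, 0.401 to 0.403 and 0.386 to 0.428 in the same order of groups. For both ratios no KO library overlapped a WT library, and the coactivators in them are the deleted genes. The first ratio was 0.452-fold in KO relative to WT and the second 2.13-fold, each with an exact two-sided permutation p of 0.0286 over 4 against 4 libraries, the smallest that this design can give, and 0.0762 after adjustment over the 8 ratio tests. Yap1 over Wwtr1 was 1.19 to 1.21 in WT soft, 1.07 to 1.13 in WT stiff, 0.941 to 0.992 in KO soft and 0.934 to 1.18 in KO stiff libraries. It differed by a log2 value of -0.19 between KO and WT (exact permutation p = 0.0857, adjusted 0.171) and of -0.0023 between stiff and soft (p = 0.971 by the same exact test). With the longest transcript Yap1 over Wwtr1 was instead 2.04 to 2.09, 1.84 to 1.96, 1.62 to 1.71 and 1.61 to 2.04, and Vgll4 over (Yap1 + Wwtr1) was 0.285 to 0.288, 0.371 to 0.387, 0.711 to 0.720 and 0.690 to 0.742, so the size of these ratios depends on the length used. Coactivator over TEAD was 2.10 to 2.37, 1.84 to 1.87, 0.889 to 0.977 and 0.816 to 0.867 by that length. Between stiff and soft libraries, coactivator over TEAD differed by a log2 value of -0.22 (exact permutation p = 0.514, adjusted 0.762) and Vgll4 over coactivator by 0.20 (exact permutation p = 0.571, adjusted 0.762). These tests pool WT and KO libraries, whose ratios lie far apart, so their p says little about a change within a genotype, and 2 libraries against 2 cannot go below an exact p of 0.333. Within each genotype coactivator over TEAD was lower in the stiff than in the soft libraries without overlap, whereas Vgll4 over coactivator was higher without overlap in WT cells and overlapped in KO cells.

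**Figure D3:**
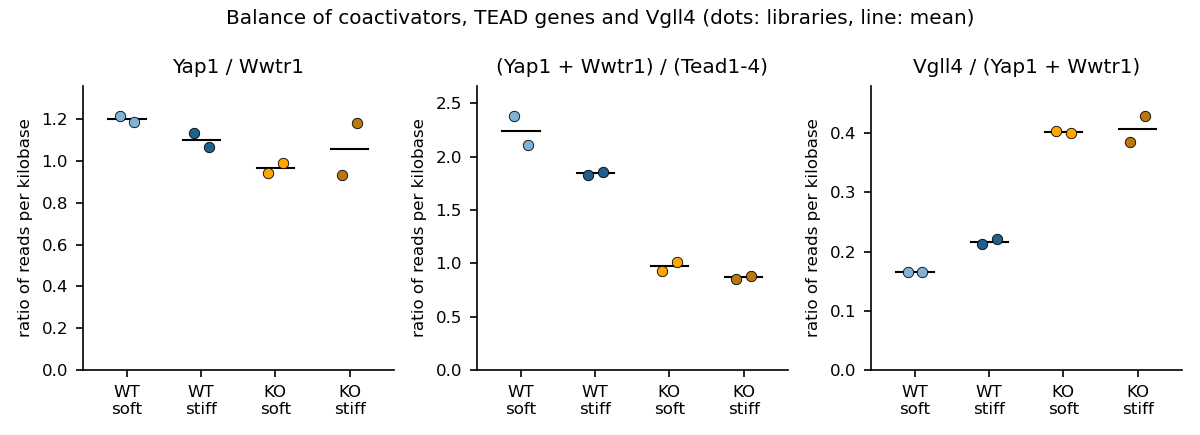
Ratios of reads per kilobase (y axis, from 0) in each library of the 4 groups (x axis): Yap1 over Wwtr1, coactivators over TEAD genes, and Vgll4 over coactivators; dots are libraries and lines the mean of 2. In the middle panel the KO libraries lie between 0.855 and 1.01 and the WT libraries between 1.83 and 2.38.

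Within the TEAD family, the makeup in WT cells differed between the hydrogels with no overlap of libraries for Tead1, Tead2, Tead3 and Tead4, which 2 libraries against 2 cannot test. Tead1 held 58.7% of the summed TEAD reads per kilobase in both WT soft libraries and 50.7% and 52.3% in the WT stiff libraries, while Tead2 held 12.9% and 11.3% in soft and 22.8% and 21.3% in stiff libraries. In KO cells Tead2 held 8.88% and 6.84% at 1 kPa and 7.38% and 7.17% at 20 kPa, below each WT library. The Tead3 share was lowest in the WT stiff and highest in the KO libraries. It was 14.1% and 14.3% in WT soft, 10.4% and 8.33% in WT stiff and 17.6% to 20.0% in the 4 KO libraries. Tead4 ranged from 14.2% to 19.8% over all 8 libraries. It held 14.2% and 15.6% in WT soft, 16.2% and 18.1% in WT stiff, 16.2% and 19.6% in KO soft and 19.8% and 18.7% in KO stiff libraries. The odds of Tead1 against the other three were 0.819-fold in stiff relative to soft libraries over both genotypes (exact permutation p = 0.0286, the smallest possible, adjusted 0.0762), and differed by a log2 value of 0.0072 between KO and WT (exact permutation p = 0.943). Shares of 1 sum move against each other by construction.

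**Figure D4:**
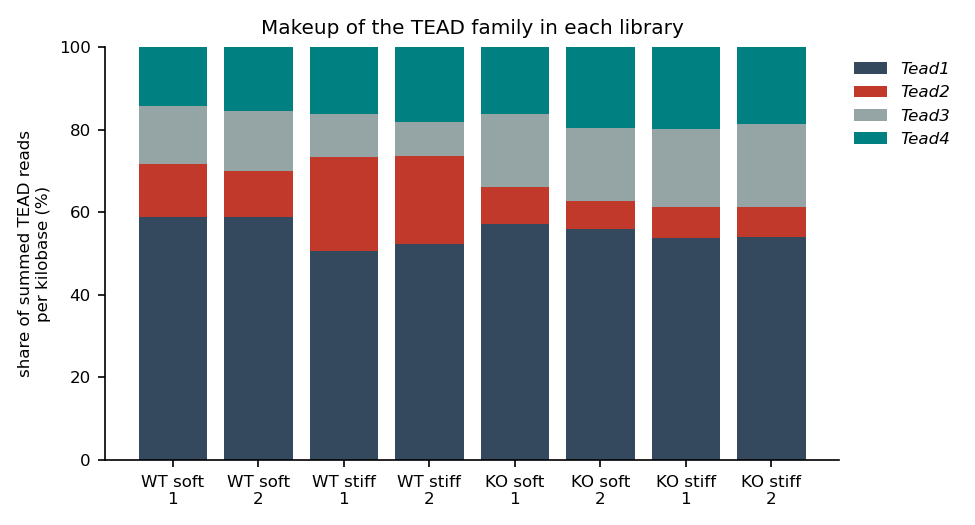
Share of the summed TEAD reads per kilobase (y axis, percent) held by Tead1, Tead2, Tead3 and Tead4 (colours) in each of the 8 libraries (x axis). The Tead2 block is tallest in the 2 WT stiff libraries, at 21.3% and 22.8%, and is between 6.84% and 8.88% in the 4 KO libraries.

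Other genes of the pathway were described from 4 lists, which share 3 genes. Beside their counts, 10.0% of all tested genes were called higher and 9.26% lower with stiffness in WT cells, 13.7% higher and 15.0% lower in KO against WT stiff cells, and 2.02% higher and 4.65% lower in KO against WT soft cells. Of 23 nuclear partners of YAP, TAZ and TEAD, 18 were tested. With stiffness in WT cells 1 of them was called higher and 1 lower, and the median log2 fold change was -0.14. The gene called higher was Vgll3, which entered the tested genes only through the WT stiff libraries, so that call is no support. The lowest was Irf2bp2, a transcriptional cofactor that binds VGLL4 (-0.60, SE 0.0705, edgeR adjusted p = 1.62e-06). In KO against WT stiff cells 3 were called higher and 2 lower, Vgll3 again among the latter on the same WT stiff counts, with Irf2bp2 highest at 0.92 (SE 0.0697, edgeR adjusted p = 2.72e-09) and a median of 0.23. The other 16 tested partners did not pass both thresholds with stiffness in WT cells.

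The 16 genes for cytoplasmic binding and degradation of YAP and TAZ were all tested. With stiffness in WT cells 1 was called higher and 2 lower, and the median log2 fold change was 0.023. The highest was Amotl2 (1.81, SE 0.0783, edgeR adjusted p = 2.23e-12), an angiomotin that holds YAP at cell junctions and is also listed as a YAP/TAZ target, and the lowest was Sfn (-1.70, SE 0.0751, edgeR adjusted p = 2.96e-12), whose protein can bind phosphorylated YAP. In KO against WT stiff cells 5 were called higher and 1 lower, with Amotl2 at -3.19 and Sfn at 2.73 on the log2 scale. Of the 15 genes of the Hippo kinase cassette, 5 were called higher and 0 lower with stiffness in WT cells, with Frmd6, which encodes an upstream activator of the kinases, highest (1.05, SE 0.0704, edgeR adjusted p = 8.98e-10) and Mob1b lowest (-0.34, SE 0.0585, edgeR adjusted p = 0.000145, under the fold threshold). In KO against WT stiff cells 0 were called higher and 6 lower, with Frmd6 at -1.96 and Lats1, a kinase that phosphorylates YAP and TAZ, at 0.20 on the log2 scale.

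Of 22 listed target genes of YAP and TAZ, 20 were tested. With stiffness in WT cells 14 were called higher and 2 lower, and the median log2 fold change was 1.08, beside 0.64 for the 7 genes of the complex and -0.0087 for all genes. Ccn2, a matricellular protein and classical target, was highest (3.32, SE 0.0597, edgeR adjusted p = 2e-17), and Ptpn14, which also binds YAP in the cytoplasm, was lowest (-1.48, SE 0.0636, edgeR adjusted p = 2.08e-12). In KO against WT stiff cells 2 were called higher and 15 lower, with a median of -2.0, from Ankrd1 at -5.26 (SE 0.0756, edgeR adjusted p = 2.09e-19) to Ptpn14 at 2.54 (SE 0.0614, edgeR adjusted p = 2.74e-16). On the soft hydrogel 1 was called higher and 11 lower, with a median of -0.82. With stiffness in KO cells 0 of the 66 genes tested in the 4 lists were called by edgeR, where 0.0210% of all tested genes were called. At an unadjusted p under 0.05 the edgeR count was 8 of the 66, against 7.54% of all genes. DESeq2 called 0 of the 66, and the median of the target genes was -0.0042.

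**Figure D5:**
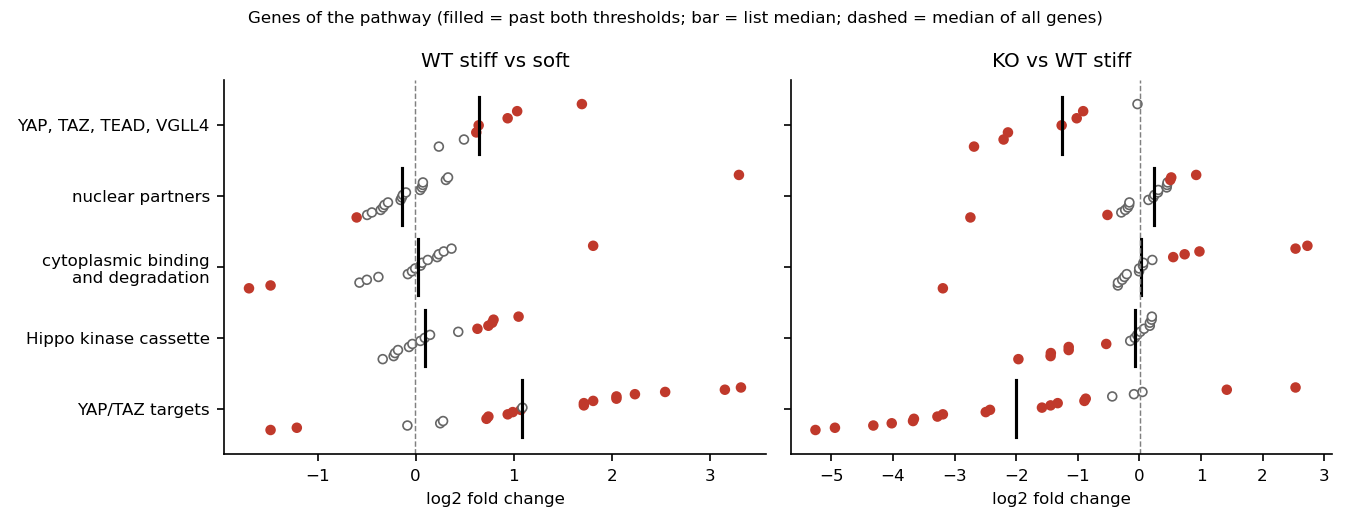
Log2 fold change (x axis) of each tested gene (dots) of the complex and of the 4 pathway lists (rows) with stiffness in WT cells and in KO against WT cells on the stiff hydrogel; filled dots passed both thresholds, bars are list medians and the dashed line is the median of all tested genes. The medians of the complex and of the target genes lie at 0.64 and 1.08 in the left panel and at -1.26 and -2.0 in the right panel. In the right panel the complex includes the deleted genes Yap1 and Wwtr1.

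Across the 8 libraries the genes of the complex followed each other to different degrees, given here as a description of 4 groups of 2 libraries rather than of 8 independent points. Pearson's r of the log2 CPM was 0.992 between Yap1 and Wwtr1 and 0.994 between Tead1 and Tead2. Vgll4 came closer to the TEAD genes, with r of 0.976 to Tead1, 0.977 to Tead2 and 0.921 to Tead4, than to Yap1 (0.855) or Wwtr1 (0.882). Tead3 had r between 0.130 and 0.506 with the other 6. Among 10036 genes with a mean of at least 100 counts, those closest to Yap1 were Cyp3a44, Bhmt and Slc3a1 (r of 0.998 to 0.997), and those closest to Wwtr1 were Ifit1, Cyp2b9 and Cyp4f14. Closest to Tead1 were Tmpo, Icam1 and Cgn, to Tead2 Maff, Loxl4 and Prc1, to Tead4 Rapgef1, Tspan9 and Hspg2, and to Vgll4 Tmem123, Hmgn1 and Sqle. An r over 0.9 was common, with between 814 and 1516 genes for each of these 6, so the nearest names say little on their own. For Tead3 only 4 genes passed 0.9, led by Ppp5c (0.937), Dpp3 (0.928) and Vps53 (0.914).

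The deposited table places Yap1 at chr9:7932000-8004597, Wwtr1 at chr3:57363070-57483331, Tead3 at chr17:28550645-28569791, Tead4 at chr6:128201251-128277786 and Vgll4 at chr6:114837589-114946955 on the minus strand, and Tead1 at chr7:112278525-112506014 and Tead2 at chr7:44865177-44883068 on the plus strand. The table names no build. Each span has the same length as in the GENCODE annotation of GRCm38, but the starts differ, by 1 base in Yap1 and by far more in the others, so these positions cannot be set beside those of the promoter sequences. Besides Cd37, the annotated genes that overlap the 7 had a mean of at most 3.25 counts, and at most 0.077% of the 64-base windows of their longest transcripts occur in another gene.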

How the data were processed

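Poly-A RNA of mouse primary hepatocytes was sequenced in 8 libraries, 2 in each of 4 groups taken from the labels. Per the study's methods, HISAT2 2.0.5 was used by the authors to align the paired-end reads and featureCounts to assign them to genes; the deposited values are raw counts with no normalization, beside a gene length in bases. The submitters' processing notes name mm9, which was not checked here. Annotation release, strand setting and treatment of multi-mapped reads are not given in the sources used here.

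All 8 libraries entered 1 edgeR 4.0.16 fit (R 4.3.3; filterByExpr by group, TMM, glmQLFit, glmQLFTest, 4 group terms, 4 residual degrees of freedom), with Benjamini-Hochberg adjustment over 14279 genes. The study's thresholds were used (adjusted p under 0.05, log2 fold change beyond 0.5 in either direction); its tool, DESeq2 (1.42.0 here), was an alternative. Ratios were compared by exact permutation tests (scipy 1.17.1), adjusted over 8. The steps were tested on simulated data. The genes, lists and alternatives were chosen with earlier results of these data known. Every gene of the complex is named; of each list, the highest and lowest log2 fold change in WT stiff vs soft and KO vs WT stiff; and the 3 genes closest to each in log2 CPM. Replicates differed by more than sampling noise (chi-square per degree of freedom 2.62 to 5.45). Promoter sequences are from RefSeq.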

Additional observations from a re-analysis of the deposited data

Results flagged for a closer look

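The effect of the stiff hydrogel differed between KO and WT cells in 6 of the 7 genes. The test was of the difference itself, an interaction term in edgeR's quasi-likelihood fit of all 8 libraries. Over all tested genes it called 16.8%, and 8.21% were called lower. The difference (the log2 fold change with stiffness in KO minus that in WT) was -0.5214 for Yap1, -0.7644 for Wwtr1, -0.6426 for Tead1, -1.755 for Tead2, -0.8518 for Tead4 and -1.009 for Vgll4. Yap1 and Wwtr1 are the deleted genes, so their values compare intact transcripts with what deletion left. With 2 libraries in a group, single libraries were not tested as outliers.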

How the results depend on the processing

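The call for each comparison was made again with 19 alternatives (18 for the interaction), which changed the tool, the scaling, the count filter, the threshold on fold change, the block and the libraries fitted. The number of the 7 genes called in WT stiff vs soft and in the interaction came to 2 each at an absolute log2 fold change over 1. That threshold called 1244 and 1040 of all 14279 tested genes. By the same threshold 2 of the 7 were called in KO vs WT soft, the deleted genes Yap1 and Wwtr1, against 353 of all genes. In KO vs WT stiff 5 of the 7 were called, against 2097 of all genes. Without 1 library the counts ranged from 5 to 6 for WT stiff vs soft and from 4 to 6 for the interaction, and stayed at 0 for KO stiff vs soft, at 3 for KO vs WT soft and at 6 for KO vs WT stiff. The library whose loss left 4 was KO soft library 2, where the Yap1 and Tead4 interactions were lost. Alternatives that leave a group with 1 library assume that it varies like the other groups.

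Changes of direction were found only in values that passed no test. Tead1 in KO stiff vs soft, 0.0004675 in the fit reported, was -0.003508 with DESeq2, -0.003529 with RLE and -0.004638 with upper quartile scaling, -0.003039 with library size only, -0.01219 without a filter, -0.00511 with at least 10 counts in every library and -0.008004 in the fit of 4 libraries, and without 1 library it ranged from -0.03667 to 0.0261, negative in 6 of 8 (-0.00786, -0.008453, -0.007648, -0.005401, -0.03255 and -0.03667). Tead3 in KO vs WT soft was -0.0005589 with at least 10 counts, -0.00125 in the fit of 4 libraries and from -0.07375 to 0.07112 without 1 library (-0.07375, -0.002081, -0.02882, -0.002449 and -0.001087 were negative). Tead3 in KO vs WT stiff was 0.02639 with library size only and 0.1464 without WT stiff library 1, and its interaction was 0.03136 without WT soft library 1 and 0.1456 without WT stiff library 1 (lowest without 1 library -0.2053 and -0.2032). Tead4 in KO vs WT soft was 0.06079 without WT soft library 2 and 0.06387 without KO soft library 1, with a lowest value of -0.1902. In KO stiff vs soft, Tead2 ranged from -0.2372 to 0.1674 (without KO soft library 1), and Yap1 was 0.0288 without KO soft library 2 and 0.03932 without KO stiff library 1, with a lowest value of -0.108. The Tead1 odds in KO vs WT were -0.05569 on counts not divided by length and -0.05651 with the longest transcript, on the log2 scale. Without 1 library they ranged from -0.07924 to 0.07814, and the stiff vs soft differences ranged from -0.06727 to 0.06532 for Yap1 over Wwtr1, from -0.01376 to 0.4164 for Vgll4 over coactivators and from -0.4392 to 0.01154 for coactivators over TEAD. The cause was not tested.

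Nothing in the labels says that the replicate numbers pair libraries across groups. The correlation of same-numbered deviations lay between -0.10 and 0.042. These are deviations from means of 2 libraries, so low values cannot exclude a shared source. With the replicate block the number of genes called was as without it in each comparison, and Tead3 in KO vs WT soft was -0.0004043. Low counts limit Tead2, Tead3, Tead4 and Vgll3 most.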
